A study of Mus musculus with 28 samples.

Results

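The genes described here encode enzymes of the tricarboxylic acid (TCA) cycle and subunits of the mitochondrial respiratory chain with its ATP synthase, in mouse B-cell lymphomas before and after a DNA-damaging drug. The set was a fixed list of 48 genes, of which 47 were measured among 18193 genes. Each was read from its brightest probe set that maps to 1 gene; Cox7b had no such probe set in the annotation used and was not analysed here. By role, the measured genes were 15 of the TCA cycle, 4 of complex II, 12 of complex I, 6 of complex III with cytochrome c, 6 of complex IV and 4 of complex V. The lymphomas arose in Emu-myc transgenic C57BL/6 mice, in which an immunoglobulin heavy chain enhancer drives the Myc oncogene in B-lineage cells. The cells were taken from lymph nodes, transduced with a retrovirus carrying Bcl2, an inhibitor of apoptosis, selected with puromycin and grown on gamma-irradiated NIH 3T3 mouse fibroblasts. Both groups share all of this. Each of 14 lymphomas gave 1 untreated culture and 1 culture that had received 0.05 µg/ml Adriamycin (ADR, doxorubicin, which poisons topoisomerase II and breaks DNA) for 5 days. The 28 arrays thus form 14 pairs, and the pairs address how the drug, given to cells that cannot readily die by apoptosis, changes their transcripts. No day is given for the untreated cultures, so whether time in culture was matched cannot be told here.

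The TCA cycle oxidises acetyl-CoA in the mitochondrial matrix and passes electrons to NADH and FADH2. Complex I takes electrons from NADH, and complex II, which is also the succinate dehydrogenase of the cycle, takes them from succinate. Complex III hands the electrons to cytochrome c, complex IV passes them to oxygen, and complex V makes ATP from the proton gradient. Most subunits are encoded in the nucleus and a few of complexes I, III, IV and V in mitochondrial DNA. Myc is known to raise the expression of many nuclear genes of mitochondrial metabolism.

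The values are log2 expression values after normalization between arrays, so each is relative to the other transcripts on its array and the RNA content per cell was not measured. All 47 genes lay above the array's median gene on all 28 arrays. Their lowest value on any array was 6.67 and their highest 13.03, against array medians between 5.63 and 6.04. The B-cell label was checked on 9 B-cell markers, of which 7 had untreated means above the array median and 2, Pax5 and Cr2, had means below it (5.59 and 4.13). Cd79a, part of the B-cell receptor, ranged from 9.96 to 11.86 in untreated cultures and Ms4a1, which encodes CD20, from 5.46 to 10.60. All 8 T-cell markers had means under the array median in both groups. After ADR, all 19 genes of a G2/M list were lower (median change -2.08). Of 25 fibroblast markers, 23 were higher after ADR and none lower (median change 1.78), with a mean level of the list of 4.56 to 5.26 in untreated and 4.86 to 8.64 in ADR cultures. Of 15 macrophage markers, 10 were higher (median change 1.48), with mean levels of 5.03 to 8.01 and 6.03 to 8.92. Of 9 B-cell markers, 5 were lower (median change -0.27). In bulk cultures such as these, fewer lymphoma cells and less RNA of a gene per lymphoma cell cannot be told apart. The ADR array of lymphoma 1570 stood apart in RNA quality, with a 3′ minus 5′ signal of Gapdh of 0.92 where the next highest ADR array had 0.38.

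After ADR, 29 of the 47 genes fell, none rose and 18 did not pass the test (limma with lymphoma as a block, adjusted p under 0.05 over all genes). At an unadjusted p under 0.05 the counts were 31 lower and 1 higher, against 3233 lower and 3618 higher among all 18193 genes. The share that fell was 61.7%, where 13.4% of all genes tested were lower and 15.3% higher. All 47 genes are bright, while many of the genes tested are dim. In a fit of the 8814 genes with a mean above 6, 30 of the 47 were lower, as were 24.6% of all. The median change of the 47 genes was -0.25 on the log2 scale, against -0.0011 for all genes. Changes ranged from -0.78 for Fh1 to 0.52 for Idh1, and 42 genes were below 0. The falls that passed the test were modest, from a log2 change of -0.19 (Cs, 87.7% of the untreated level) to one of -0.78 (Fh1, 58.3%). Only 4 genes changed by more than 0.5 downward: Fh1, Idh2, Uqcrfs1 and Idh3a. The 6 genes Fh1, Idh2, Ndufv2, Ndufa9, Uqcrfs1 and Atp5c1 were lower in all 14 lymphomas, as were 2.59% of all genes. With each array centred on its median instead, 35 genes were lower, as were 23.1% of all genes, and the median of all genes shifted by -0.1. The share of lower genes among all calls was then 67.7%, against 46.6% without that centring. Without lymphoma 1570, 28 of the genes were lower and 1, Idh1, was higher.

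**Figure D1:**
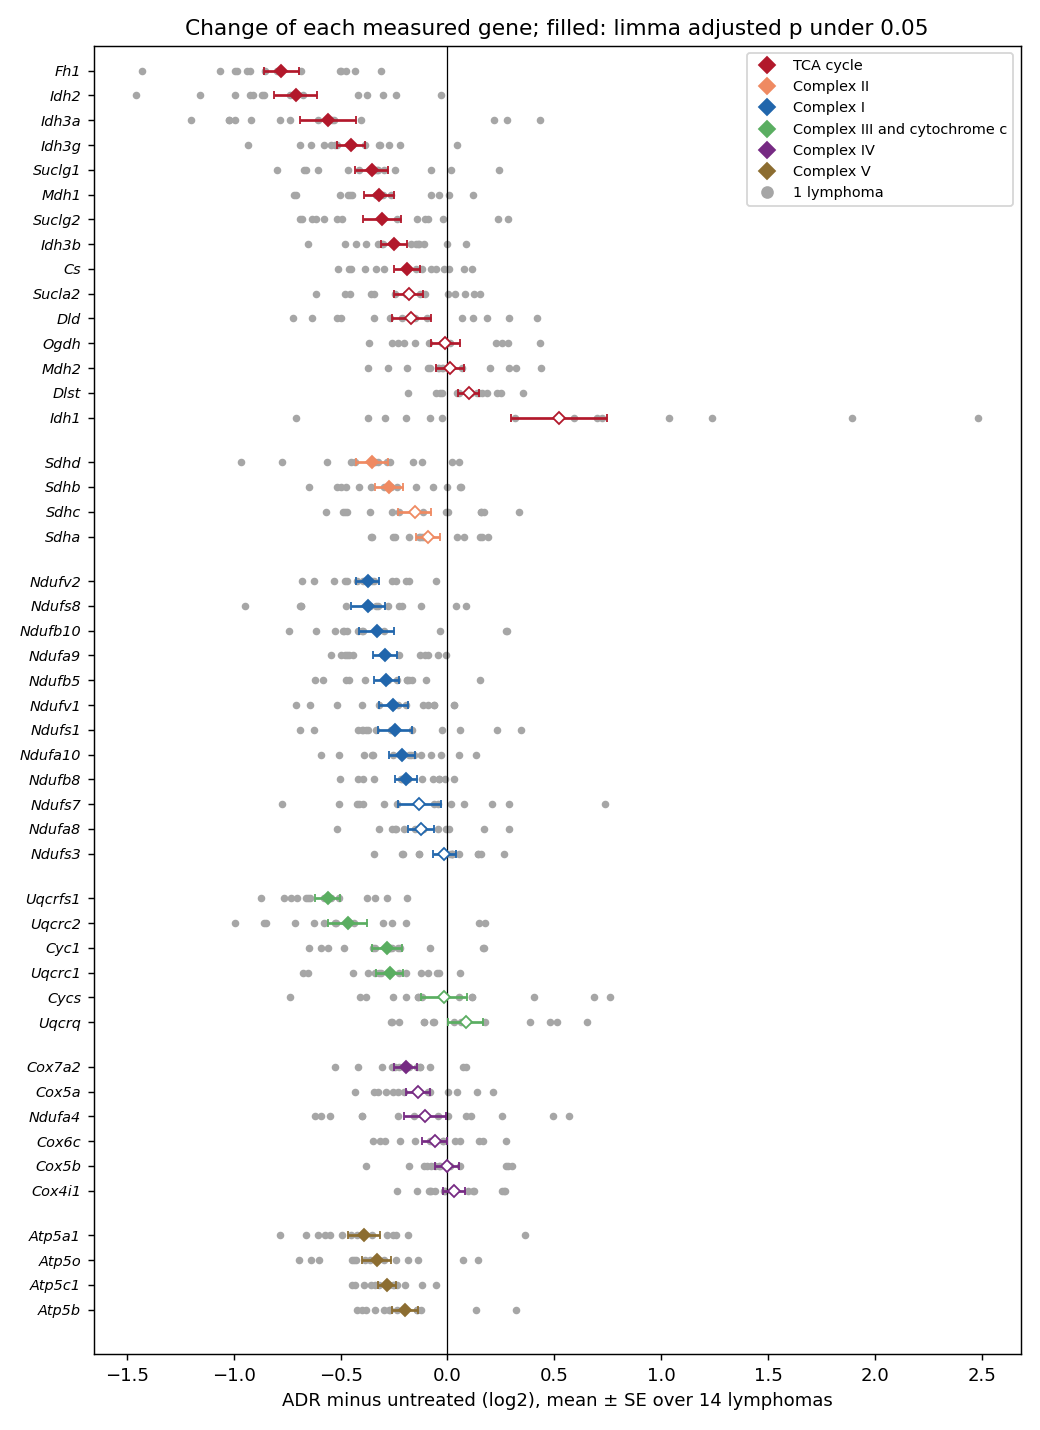
Change after ADR of each of the 47 genes (horizontal axis, ADR minus untreated on the log2 scale), grouped by role. Grey points are the 14 lymphomas, diamonds the mean with its standard error, and filled diamonds mark the 29 genes past the limma threshold, all to the left of 0. Idh1 has the widest spread, from -0.71 to 2.48.

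Because fibroblast markers rose with the drug, each change was also fitted with the change of the fibroblast list as a covariate, which gives a value at no fibroblast change. In that fit 5 of the 47 genes were lower (Fh1, Idh2, Ndufv2, Uqcrfs1 and Atp5c1) and none was higher, where 4.91% of all genes were lower and 5.6% higher. At an unadjusted p under 0.05 there were 12 lower and 1 higher, against 1948 lower and 2407 higher among all 18193 genes. The median of the 47 values was -0.17. Of the 29 genes that had fallen, 28 stayed below 0, the exception being Ndufs1 at 0.04 (limma adjusted p = 0.887), and 24 were smaller in size. The fit is also less precise, with a median standard error of 0.11 against 0.07. The fibroblast RNA itself was not removed from the arrays, and its part in the smaller values was not tested further.

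**Figure D2:**
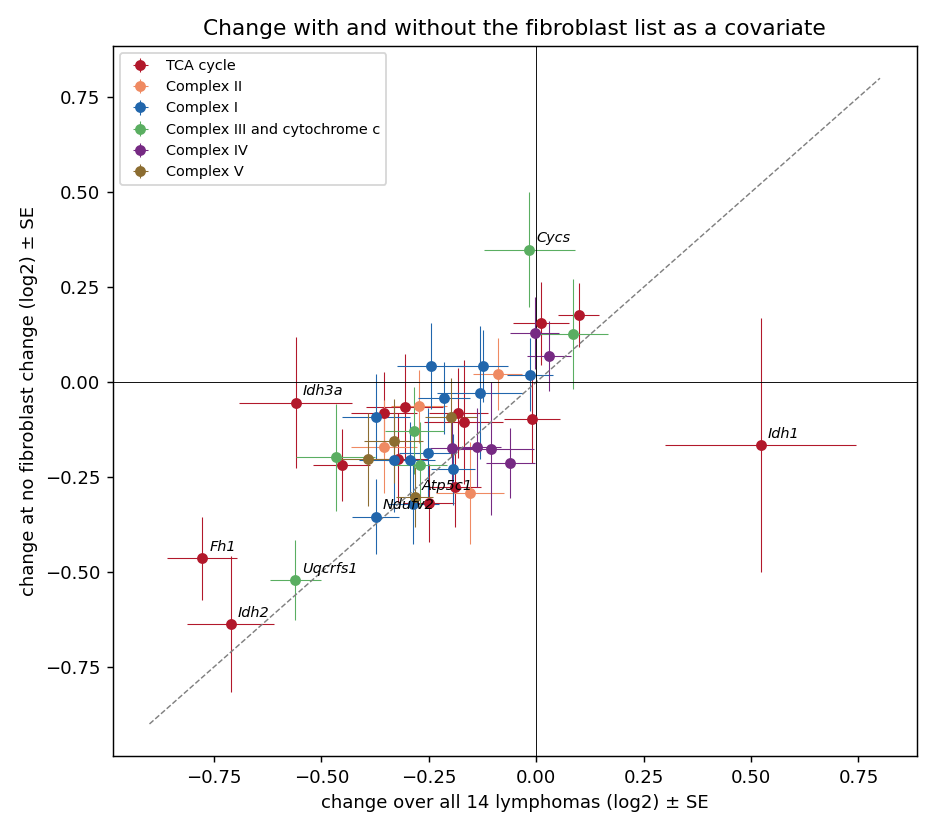
Change over all 14 lymphomas (horizontal axis, log2 ± SE) against the value at no fibroblast change (vertical axis, log2 ± SE) for the 47 genes, coloured by role. The dashed line marks equal values. Uqcrfs1 lies on it (-0.56 and -0.52), while Idh3a moves from -0.56 to -0.05 and Idh1 from 0.52 to -0.17.

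Because 29 of the genes fell, the promoters of the set were searched for 5 short motifs, on both strands, in windows of 300 bases (250 before and 50 after the start site; RefSeq, GRCm38.p6). Windows were at hand for 39 of the 48 genes. The letters were TGCGCATGC for the core of NRF1, CACGTG for the E-box that Myc can bind, TCAAGGTCA for ERR receptors, CCGGAAGT for ETS factors such as GABPA, and AAGATGGC for YY1. At least 1 motif was found in 11 genes (28.2%), against 16.2% of all 27025 genes with a window. YY1 letters were in 4 (10.3% against 3.19%) and NRF1 letters in 3 (7.69% against 1.72%). E-box letters were in 2 (5.13% against 8.09%), ETS letters in 2 (5.13% against 4.31%) and ERR letters in 1 (2.56% against 0.466%). Of the 24 genes that fell and have a window, 6 held a motif, and of the 14 that did not pass the test, 5 did. The windows of the set were rich in CpG, with a median of 21.5 per window against 7 for all. The windows of 4 genes are printed 5′ to 3′ on the gene's strand, with matches in capitals. Fh1 (chr1:175625586-175625885, minus strand) and Uqcrfs1 (chr13:30545267-30545566, minus strand) are shown because their falls had the smallest p of the set, and neither holds a match. Uqcrc1 (chr9:108936398-108936697, plus strand) and Ndufa9 (chr6:126849095-126849394, minus strand) fell too and hold a match just after the start site. In Uqcrc1 the NRF1 letters occur on both strands and overlap, and in Ndufa9 the capitals are the YY1 letters.
Fh1: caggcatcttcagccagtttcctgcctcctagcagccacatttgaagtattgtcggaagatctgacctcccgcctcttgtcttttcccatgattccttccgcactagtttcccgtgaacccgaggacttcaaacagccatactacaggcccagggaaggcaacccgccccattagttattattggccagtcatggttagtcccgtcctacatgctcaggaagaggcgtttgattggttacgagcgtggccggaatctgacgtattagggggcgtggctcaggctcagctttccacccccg
Uqcrfs1: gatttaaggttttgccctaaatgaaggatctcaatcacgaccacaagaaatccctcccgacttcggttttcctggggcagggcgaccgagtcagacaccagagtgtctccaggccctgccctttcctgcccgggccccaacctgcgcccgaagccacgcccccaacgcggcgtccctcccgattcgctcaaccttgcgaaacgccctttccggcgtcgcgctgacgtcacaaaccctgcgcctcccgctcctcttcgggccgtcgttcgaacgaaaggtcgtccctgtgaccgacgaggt
Uqcrc1: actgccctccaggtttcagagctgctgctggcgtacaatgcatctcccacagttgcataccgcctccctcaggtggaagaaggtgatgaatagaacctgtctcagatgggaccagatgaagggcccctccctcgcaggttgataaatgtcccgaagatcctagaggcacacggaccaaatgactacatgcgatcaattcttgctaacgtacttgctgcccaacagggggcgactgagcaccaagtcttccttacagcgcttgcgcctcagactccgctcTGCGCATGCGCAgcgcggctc
Ndufa9: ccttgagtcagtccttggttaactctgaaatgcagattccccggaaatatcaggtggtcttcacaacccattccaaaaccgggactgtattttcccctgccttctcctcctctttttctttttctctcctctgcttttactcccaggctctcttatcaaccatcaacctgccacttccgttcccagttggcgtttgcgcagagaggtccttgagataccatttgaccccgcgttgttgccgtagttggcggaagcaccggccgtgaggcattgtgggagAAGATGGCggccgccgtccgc
A match describes these letters only, and no binding was measured here.

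Of the 15 TCA cycle genes, 9 fell and 6 did not pass the test, with a median change of -0.25. At no fibroblast change 2 of them were lower. The largest fall of the set was that of Fh1, which encodes fumarase, the enzyme that hydrates fumarate to malate. Its level ran from 10.29 through a median of 10.75 to 11.26 in untreated cultures and from 9.29 through 10.01 to 10.68 in ADR cultures. The groups overlapped little: 11 ADR arrays lay below the lowest untreated one. The change was -0.78 ± 0.08 (SE, n = 14 pairs, limma adjusted p = 7.76e-06), from -1.43 in lymphoma 3769 to -0.31 in 5043. At no fibroblast change it was -0.46 ± 0.11 (adjusted p = 0.0138, limma).

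Isocitrate dehydrogenases oxidise isocitrate to 2-oxoglutarate, and 4 of the 5 genes fell. Idh2, the NADP-dependent mitochondrial enzyme, ranged from 9.16 (median 9.81) to 10.45 untreated and from 8.20 (median 9.10) to 9.49 after ADR. Of the ADR arrays, 9 were below every untreated array. Lymphoma 2949 hardly moved (-0.03), while 3769 moved most (-1.46). The change was -0.71 ± 0.10 (limma adjusted p = 7.78e-05), and at no fibroblast change it was -0.64 ± 0.18 (adjusted p = 0.0319). The NAD-dependent enzyme of the cycle is built from Idh3a, the catalytic subunit, with Idh3b and Idh3g. Idh3g, which ranged from 10.19 (median 10.78) to 11.03 untreated, ranged from 9.66 (median 10.23) to 10.98 after ADR. Its change was -0.45 ± 0.07 (limma adjusted p = 9.96e-05), lower in 13 of 14 lymphomas. Idh3a fell by 0.56 ± 0.13 (limma adjusted p = 0.0041) and Idh3b by 0.25 ± 0.06 (adjusted p = 0.00414). Idh3a was higher in lymphomas 5043, 1467 and 2949, and its value at no fibroblast change was -0.05 ± 0.17.

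Idh1, the cytosolic and peroxisomal form, did not pass the test. It ran from 6.67 (median 7.91) to 9.16 untreated and from 7.25 (median 8.30) to 10.05 after ADR. The groups overlapped in part: 5 ADR arrays lay above the highest untreated one, and 1 untreated array lay below every ADR array. Its change was 0.52 ± 0.22 (limma adjusted p = 0.0952), higher in 8 of 14 lymphomas, with 3594 at 2.48 and 1570 at -0.71. At no fibroblast change it was -0.17 ± 0.33. The difference in change between Idh1 and Idh2 was not tested.

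Succinyl-CoA ligase, which makes a nucleoside triphosphate from succinyl-CoA, joins the shared alpha subunit Suclg1 with either Suclg2 or Sucla2. In that direction the Suclg2 form uses GDP and the Sucla2 form uses ADP. Suclg1 ranged from 9.44 (median 10.00) to 10.30 untreated and from 9.12 (median 9.67) to 10.01 after ADR, overlapping over much of the range. It fell by 0.36 ± 0.08 (limma adjusted p = 0.00233). Suclg2 ranged from 9.07 (median 10.10) to 10.25 and from 9.23 (median 9.57) to 10.46, with no ADR array below the lowest untreated one. It fell by 0.31 ± 0.09 (limma adjusted p = 0.0157). Sucla2 did not pass, at -0.18 ± 0.07 (limma adjusted p = 0.0575), from levels of 9.49 to 10.40 untreated and 9.30 to 9.79 after ADR.

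The cytosolic and mitochondrial malate dehydrogenases had different calls. Cytosolic Mdh1 ranged from 10.52 (median 11.67) to 12.24 untreated and from 10.36 (median 11.28) to 11.81 after ADR, and fell by 0.32 ± 0.07 (limma adjusted p = 0.00244). Mitochondrial Mdh2 ranged from 12.08 (median 12.36) to 12.73 and from 12.06 (median 12.35) to 12.69 with a change of 0.01 ± 0.07 (limma adjusted p = 0.92). Whether the 2 changes differ was not tested. Cs, citrate synthase, which opens the cycle, fell least among the genes that passed: -0.19 ± 0.06 (limma adjusted p = 0.0287), from 10.81 (median 11.08) to 11.46 untreated and 10.55 (median 10.89) to 11.57 after ADR. The 3 components of the 2-oxoglutarate dehydrogenase complex did not pass: Ogdh changed by -0.0096, Dlst by 0.10 and Dld by -0.17, all with limma adjusted p of 0.146 or more. Dimmer probe sets of Ogdh (-0.34) and Dlst (-0.25 and -0.33) were lower by limma, and Ogdh was lower with the probe set of largest variance and with the mean of its probe sets.

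**Figure D3:**
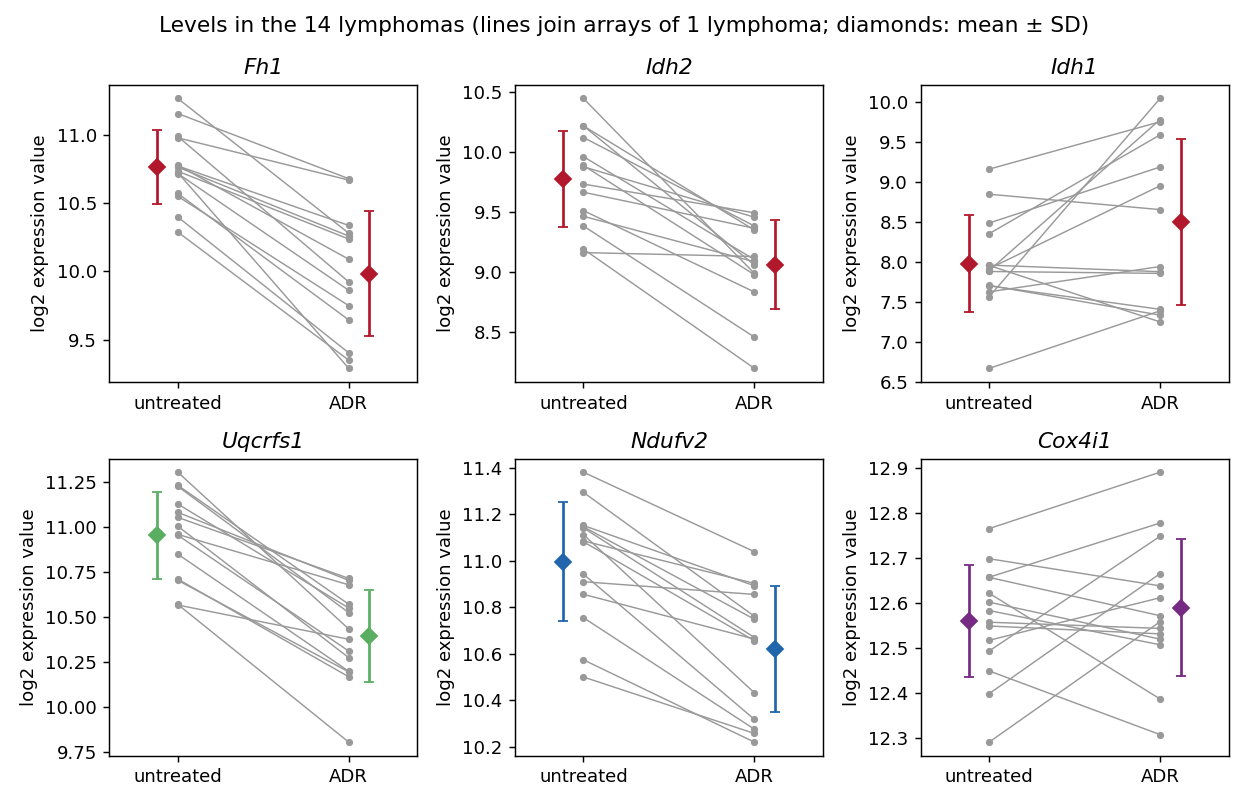
Log2 expression values of 6 genes in untreated and ADR cultures, where lines join the 2 arrays of a lymphoma and diamonds give the mean ± SD of 14 arrays. Every line falls for Fh1, Idh2, Uqcrfs1 and Ndufv2, while Idh1 and Cox4i1 have lines in both directions. Each panel has its own vertical scale.

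Complex II links the cycle to the chain. Of its 4 subunits, Sdhb and Sdhd fell and Sdha and Sdhc did not pass, and by limma none was lower at no fibroblast change (1 at an unadjusted p under 0.05). Sdhb, the iron-sulfur subunit, ranged from 10.28 (median 10.83) to 11.06 untreated and from 10.23 (median 10.45) to 10.76 after ADR, with 8 untreated arrays above the highest ADR array. Its change was -0.27 ± 0.07 (limma adjusted p = 0.0045). Sdhd, a membrane anchor, ranged from 9.13 (median 10.32) to 10.85 and from 9.02 (median 9.92) to 10.35, and its change was -0.35 ± 0.08 (limma adjusted p = 0.00211). Sdha, the flavoprotein that oxidises succinate, lay between 10.35 and 11.11 untreated and between 10.35 and 11.09 after ADR, a change of -0.09 ± 0.06 (limma adjusted p = 0.268). Sdhc, the other anchor, lay between 9.18 and 10.53 and between 8.93 and 10.09, a change of -0.15 ± 0.08 (limma adjusted p = 0.169).

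Of the 12 complex I subunits 9 fell, with a median change of -0.25 over the 12, and 1 was lower at no fibroblast change. That subunit was Ndufv2, an iron-sulfur protein of the NADH-oxidising arm. It ranged from 10.50 (median 11.08) to 11.38 untreated and from 10.22 (median 10.67) to 11.04 after ADR. Of the untreated arrays 8 lay above every ADR array, and all 14 lymphomas moved down, for a change of -0.37 ± 0.05 (limma adjusted p = 9.71e-05) and one of -0.35 ± 0.10 (adjusted p = 0.0304) at no fibroblast change. Ndufa9, an accessory subunit, ranged from 9.95 (median 10.48) to 10.80 untreated and from 9.83 (median 10.20) to 10.35 after ADR. It was also lower in all 14 lymphomas (-0.29 ± 0.06, limma adjusted p = 0.00104), though lymphoma 3594 moved by only -0.0058. Ndufs8, a core iron-sulfur subunit, ranged from 10.12 (median 11.22) to 11.82 and from 10.15 (median 10.87) to 11.49, and the groups overlapped widely. Within pairs it fell by 0.37 ± 0.08 (limma adjusted p = 0.002). Ndufb5, an accessory subunit of the membrane arm, ranged from 11.15 (median 11.56) to 12.01 and from 10.92 (median 11.34) to 11.82, and fell by 0.29 ± 0.06 (limma adjusted p = 0.00184). The other 5 that passed were the core subunits Ndufv1 (-0.25) and Ndufs1 (-0.25) and the accessory subunits Ndufb10 (-0.33), Ndufa10 (-0.21) and Ndufb8 (-0.19). The 3 that did not pass were Ndufs7 (-0.13), Ndufa8 (-0.13) and Ndufs3 (-0.01).

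Of the 6 genes of complex III with cytochrome c, 4 fell and 2 did not pass, with a median change of -0.28, and 1 was lower at no fibroblast change. The fall of Uqcrfs1 had the smallest p of the set. Uqcrfs1, the Rieske iron-sulfur protein that takes electrons from ubiquinol, ranged from 10.57 (median 10.98) to 11.31 untreated and from 9.80 (median 10.41) to 10.72 after ADR. Of the ADR arrays 10 lay below the lowest untreated array, and all 14 lymphomas moved down, from -0.87 in 3769 to -0.19 in 2949. The change was -0.56 ± 0.06 (limma adjusted p = 7.58e-06), and -0.52 ± 0.11 at no fibroblast change (adjusted p = 0.00597). The core proteins moved less evenly. Uqcrc2 ranged from 10.52 (median 11.08) to 11.46 and from 9.85 (median 10.53) to 11.35, and fell by 0.47 ± 0.09 (limma adjusted p = 0.00113). Uqcrc1 ranged from 10.04 (median 10.63) to 11.22 and from 9.77 (median 10.41) to 10.80, and fell by 0.27 ± 0.06 (limma adjusted p = 0.00401). Cyc1, cytochrome c1, fell by 0.28 ± 0.07 (limma adjusted p = 0.00538), from 10.66 (median 11.16) to 11.48 untreated to 10.38 (median 10.83) to 11.24 after ADR. Uqcrq, a small subunit, stood at 0.09 ± 0.08 (limma adjusted p = 0.499). Cycs, cytochrome c, which carries electrons to complex IV and also takes part in apoptosis when released, ranged from 11.02 (median 11.85) to 12.63 and from 11.30 (median 11.84) to 12.37. The ADR range lay inside the untreated one and the change was -0.02 ± 0.11 (limma adjusted p = 0.935). Single lymphomas lay between -0.74 in 2581 and 0.76 in 5043. At no fibroblast change Cycs stood at 0.35 ± 0.15 and did not pass (limma adjusted p = 0.167).

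Complex IV had the fewest calls for its size: 1 of 6 genes fell (16.7%), with a median change of -0.08. Of all genes 13.4% were lower, and of the genes with a mean above 6, 24.6%. Whether complex IV differs from the other complexes was not tested. The gene that fell was Cox7a2, a small nuclear-encoded subunit, from 11.92 (median 12.44) to 12.66 untreated to 11.99 (median 12.22) to 12.44 after ADR. There 8 untreated arrays lay above every ADR array, and the change was -0.20 ± 0.05 (limma adjusted p = 0.0098). Cox5a ranged from 11.55 (median 12.02) to 12.44 and from 11.50 (median 11.89) to 12.15, with a change of -0.14 ± 0.06 (limma adjusted p = 0.0836). Cox4i1, Cox5b and Cox6c changed by 0.03, -0.0032 and -0.06. Ndufa4 was named as a complex I subunit, its human protein now being placed in complex IV; it changed by -0.11 ± 0.10 and ranged from 9.62 to 11.04 untreated and 9.62 to 11.09 after ADR. With arrays centred on their medians 3 of the 6 were lower, as were 23.1% of all genes. At no fibroblast change none of the 6 was lower by limma (1 at an unadjusted p under 0.05).

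All 4 complex V genes fell, each encoding a part of the catalytic head or stalk of the ATP synthase, with a median change of -0.31, and 1 was lower at no fibroblast change. Atp5c1, the rotating gamma subunit, ranged from 11.68 (median 11.94) to 12.09 untreated and from 11.40 (median 11.67) to 11.83 after ADR. Here 10 untreated arrays were above every ADR array and all 14 lymphomas moved down, giving -0.28 ± 0.04 (limma adjusted p = 0.00014) and -0.30 ± 0.08 at no fibroblast change (adjusted p = 0.0219). Atp5a1, the alpha subunit, ranged from 11.81 (median 12.26) to 12.60 and from 11.32 (median 11.91) to 12.31, and fell by 0.39 ± 0.08 (limma adjusted p = 0.000947). Atp5o, which joins head and stalk, ranged from 11.04 (median 11.47) to 11.80 and from 10.85 (median 11.09) to 11.42, and fell by 0.33 ± 0.07 (limma adjusted p = 0.00165). Atp5b, the beta subunit with the catalytic site, ranged from 12.11 (median 12.68) to 13.03 and from 11.97 (median 12.41) to 12.83, and fell by 0.20 ± 0.06 (limma adjusted p = 0.0208). In lymphoma 5043, Atp5a1 (0.36), Atp5b (0.32) and Atp5o (0.14) were higher after ADR. With the probe set of largest variance in place of the brightest, 2 of the 4 passed.

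The 14 lymphomas did not share the fall equally. In 3769 and 5766, 44 of the 47 genes were lower after ADR, with median changes of -0.38 and -0.34. Of all genes, 52.0% and 46.6% were lower in these pairs. In 2949 and 9583 only 21 of the 47 were lower, with a median of 0.04 in each, and in 5043 there were 26 (median -0.08). The shares of all genes lower in these 3 pairs were 46.1%, 45.1% and 49.5%. In the other lymphomas between 34 and 43 of the 47 genes were lower, and between 45.6% and 59.1% of all genes. Fh1 had the lowest change of the set in 2949 (-0.44) and in 9583 (-0.50). The median of all genes in 1 lymphoma lay between -0.10 (403) and 0.04 (6054). The largest fibroblast list rises, 3.79 in 403 and 3.58 in 5560, went with set medians of -0.32 and -0.25, while lymphoma 1467, where the fibroblast list moved by -0.04, had -0.19. Lymphoma 1570, with a fibroblast list change of 0.62, had -0.32 and 43 genes lower. Lymphomas 2949 and 5043, with fibroblast list changes of 0.41 and 0.42, had 0.04 and -0.08. The G2/M list fell most in 2949, by 4.13. Of the lymphomas, 11 are labelled as samples of an earlier series and 3 (5043, 9583 and 9584) are not. The median of the mean changes was -0.26 in the 11 and -0.14 in the 3. No gene of the set differed between them by limma at an adjusted p under 0.05 (smallest 0.864), and 3 did at an unadjusted p under 0.05: Sdha, Atp5a1 and Dld.

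**Figure D4:**
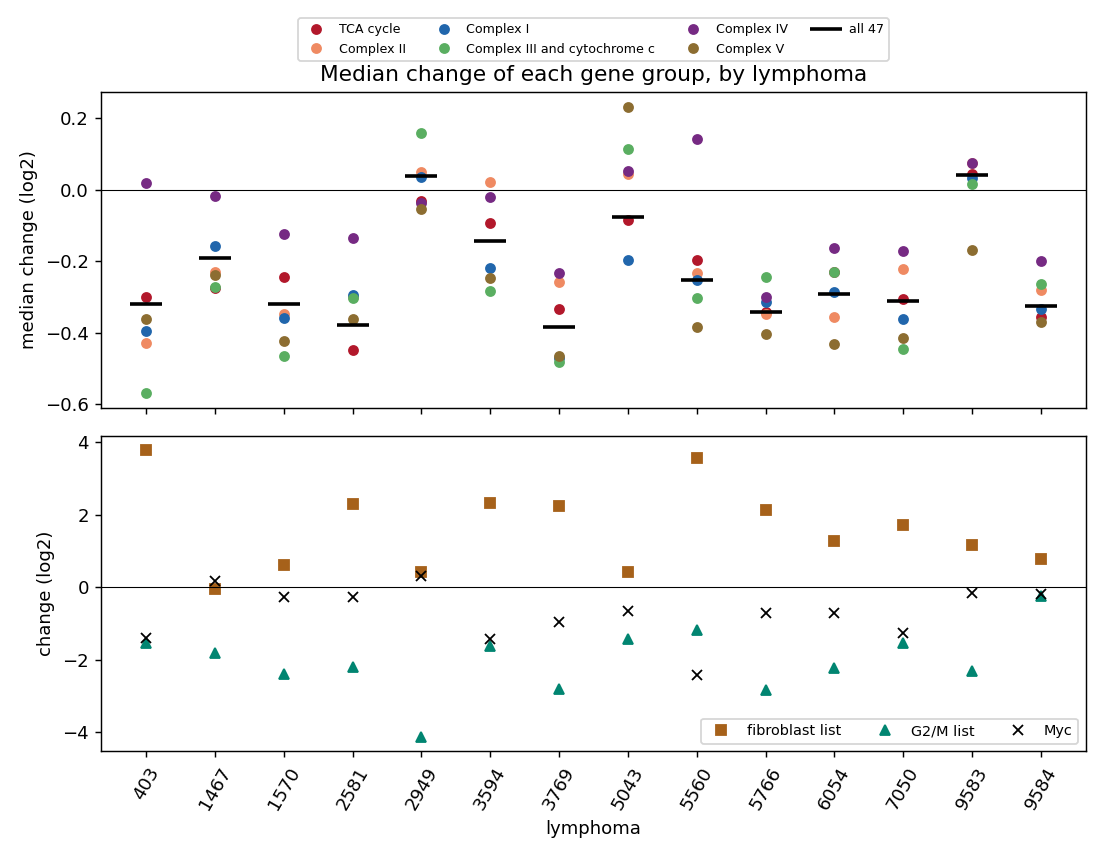
Upper panel: median change after ADR (log2) of each role group in each of the 14 lymphomas, with a bar for all 47 genes. Lower panel: mean change of the fibroblast and G2/M lists and the change of Myc (log2). The bars lie above 0 in 2949 and 9583 and lowest in 3769.

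The untreated arrays of the 14 lymphomas differed in these genes. With 1 untreated array per lymphoma, differences between lymphomas cannot be told apart here from those of culture, RNA or array. The SD over the 14 untreated arrays had a median of 0.25 over the set, close to that over all genes (0.25), and ran from 0.12 for Atp5c1 to 0.60 for Idh1. It was above 0.4 for 6 genes: Idh1, Mdh1, Sdhc, Sdhd, Ndufs8 and Cycs. Lymphoma 2949 had the lowest untreated level of 19 of the 47 genes, with a median deviation of -0.35 from the gene means, and lymphoma 403 had the highest of 11 (median deviation 0.22). Without 2949 and 9583 the test found 32 genes lower, a choice made after their changes were seen.

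The change of each gene was set against 3 other changes over the 14 lymphomas, those of Myc, the G2/M list and the fibroblast list, 141 relations in all. None had an adjusted p under 0.05 by Pearson or Spearman with 100000 permutations. With the probe set of largest variance in place of the brightest, 1 relation with Myc and 2 with the fibroblast list passed by Spearman, and none by Pearson. At an unadjusted Pearson p under 0.05 there were 13 for the fibroblast list, 9 for Myc and none for the G2/M list (smallest adjusted p 0.371). The same relations were not computed for all genes, so whether these counts are particular to the set cannot be told. Against the fibroblast list the smallest p was that of Fh1, with r = -0.73 and rho = -0.81 (permutation p = 0.0032 and 0.00098, adjusted 0.131 and 0.0691). Without the 2 lymphomas farthest from the median, 403 and 5560, r was -0.79, and within the 11 lymphomas of the earlier series it was -0.71. Idh3g followed (r = -0.72, rho = -0.72), then Idh3a (r = -0.70, rho = -0.74) and Ndufs8 (r = -0.69, rho = -0.67). Uqcrfs1, which also fell in all 14 lymphomas, had r = -0.14 and rho = -0.12 (permutation p = 0.634 and 0.696, adjusted 0.811 and 0.887). Against Myc, which itself fell by 0.71 ± 0.18 (limma adjusted p = 0.00734), Idh3g had r = 0.75 and rho = 0.74 (permutation p = 0.00252 and 0.00352, adjusted 0.131 and 0.105) and Ndufa10 r = 0.70 and rho = 0.82. Without lymphomas 5560 and 2949 these were r = 0.54 and 0.85. Suclg1 (r = 0.66, rho = 0.70) and Idh1 (r = -0.66, rho = -0.70) came next. The changes of Myc and of the fibroblast list were themselves related (r = -0.81), so the 2 sets of relations cannot be told apart. At no fibroblast change Myc stood at 0.12 ± 0.19 (limma adjusted p = 0.784).

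Other genes of the same machinery were counted from lists, and whether their counts differ from those of the 47 genes was not tested. Over all genes 13.4% were lower and 15.3% higher, and 24.6% of the genes with a mean above 6 were lower. By limma, 6 of 21 further complex I subunits fell (28.6%) and none rose (median change -0.13). At an unadjusted p under 0.05, 8 were lower and 1 higher. Of 21 further subunits of complexes III to V, 5 fell (23.8%) and none rose (median -0.10, with 7 lower and 0 higher unadjusted). At no fibroblast change the lower ones numbered 0 and 2 by limma, or 6 and 8 at an unadjusted p under 0.05. Among them Atp5g2, part of the proton-translocating ring, fell by 0.39 ± 0.06 (limma adjusted p = 0.00022) and Ndufab1, the mitochondrial acyl carrier protein, by 0.28 ± 0.06 (adjusted p = 0.00115). The other 9 falls were those of Ndufa12 (-0.28), Ndufb3 (-0.27), Ndufb11 (-0.27), Ndufc1 (-0.27), Ndufs4 (-0.17), Atp5d (-0.20), Atp5h (-0.18), Atp5g3 (-0.17) and Atp5k (-0.15). Of 6 carriers and porins 2 fell: the ADP/ATP carrier Slc25a5 (-0.26) and the porin Vdac1 (-0.17). Neither passed at no fibroblast change, at -0.02 and -0.28 (limma adjusted p = 0.932 and 0.0624). Of the 13 genes in mitochondrial DNA only ND5 was measured; it rose by 0.36 ± 0.12 (limma adjusted p = 0.0303), from 11.26 (median 11.81) to 12.70 untreated to 11.49 (median 12.18) to 12.76 after ADR. At no fibroblast change ND5 stood at 0.48 and did not pass (limma adjusted p = 0.158).

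Of 25 genes for the entry of pyruvate and other fuels, 9 fell (36.0%) and 4 rose (median -0.17). At no fibroblast change 6 were lower and none higher by limma (2 higher at an unadjusted p under 0.05). Among all genes 13.4% were lower and 15.3% higher, and 24.6% of those with a mean above 6 were lower. At no fibroblast change 4.91% of all genes were lower and 5.6% higher. Pdk1, a kinase that switches off pyruvate dehydrogenase, ranged from 9.53 (median 10.74) to 11.68 untreated and from 8.24 (median 9.69) to 11.01 after ADR. It was lower in all 14 lymphomas, by -0.93 ± 0.11 (limma adjusted p = 1.4e-05), and at no fibroblast change by -0.65 ± 0.17 (adjusted p = 0.0226). Pdha1, a subunit of the enzyme that Pdk1 acts on, fell by 0.38 ± 0.06 (limma adjusted p = 0.000242). The mitochondrial malic enzyme Me2 changed by -0.74 ± 0.10 and the cytosolic aspartate aminotransferase Got1 by -0.51 ± 0.07 (limma adjusted p = 5.71e-05 and 8.16e-05). Among the rises were Pdk4 (1.42 ± 0.33) and cytosolic Me1 (0.99 ± 0.30), which stood at -0.23 and -0.66 at no fibroblast change. In that fit Pdk4 did not pass (limma adjusted p = 0.722), while Me1 was 1 of the 6 lower genes (adjusted p = 0.0183). Their untreated medians were low, at 3.16 for Pdk4, near the low end of the scale, and 5.19 for Me1. The largest changes of both, 5.28 and 3.115, were in lymphoma 403. The other rises were the 2-oxoglutarate carrier Slc25a11 (0.36 ± 0.09) and glutamate dehydrogenase Glud1 (0.22 ± 0.06), at 0.20 and 0.24 at no fibroblast change.

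Of 18 regulators of mitochondrial biogenesis and of mitochondrial DNA expression, 5 fell (27.8%) and 1 rose (median -0.21). The share lower was 13.4% over all genes and 24.6% over genes with a mean above 6. At no fibroblast change 2 regulators were lower and 2 higher. Gabpa, the DNA-binding subunit of an ETS factor that acts on many respiratory chain genes, ranged from 8.91 (median 9.25) to 9.50 untreated and from 8.15 (median 8.53) to 8.89 after ADR. The 2 groups did not overlap. Its change was -0.66 ± 0.06 (limma adjusted p = 3.54e-06), and -0.48 ± 0.10 at no fibroblast change (adjusted p = 0.00564). Tfam, which packages and transcribes mitochondrial DNA, ranged from 9.03 (median 9.27) to 9.61 and from 8.07 (median 8.53) to 9.05, and fell by 0.63 ± 0.08 (limma adjusted p = 4.97e-05). Its value at no fibroblast change was -0.28 ± 0.11 (adjusted p = 0.108, limma). Nrf1, a transcription factor of respiratory genes, fell by 0.73 ± 0.11 (limma adjusted p = 0.000146), and 13 ADR arrays lay below its lowest untreated level. Tfb1m (-0.79) and Polg2 (-0.50) fell as well. Esrra, a nuclear receptor of the same programme, rose by 0.26 ± 0.07 (limma adjusted p = 0.0113). The coactivators did not pass: Ppargc1b changed by -0.30 ± 0.14, Pprc1 by -0.09 ± 0.11 and Ppargc1a by 0.16 ± 0.11. Ppargc1a had an untreated median of 3.19, near the low end of the scale, where changes are compressed.

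**Figure D5:**
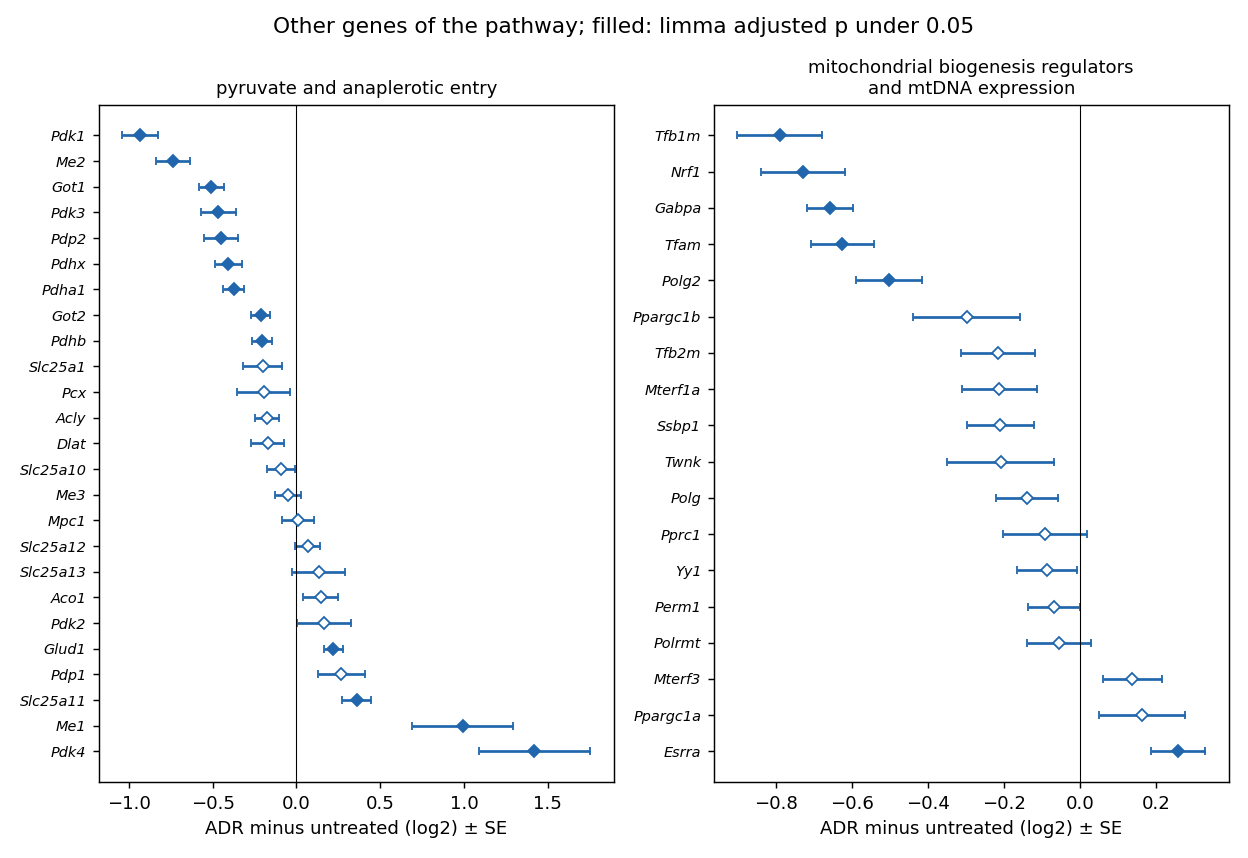
Change after ADR (log2 ± SE over 14 lymphomas) of 25 genes for pyruvate and other fuel entry (left) and of 18 regulators of mitochondrial biogenesis and mitochondrial DNA expression (right). Filled diamonds passed the limma threshold. Pdk1 and Tfb1m lie farthest to the left, Pdk4 and Esrra farthest to the right.

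Of 26 assembly factors of the chain, 10 fell (38.5%) and 4 rose (median -0.21). At no fibroblast change 3 were higher and none lower by limma (4 lower at an unadjusted p under 0.05). For all genes the shares were 13.4% lower and 15.3% higher, with 24.6% lower among those with a mean above 6. At no fibroblast change they were 4.91% lower and 5.6% higher. Ecsit, a complex I assembly factor, fell by 0.62 ± 0.11 in all 14 lymphomas (limma adjusted p = 0.000433), Bcs1l, which inserts the Rieske protein into complex III, by 0.61 ± 0.10 (adjusted p = 0.000311), and Oxa1l, an inner membrane insertase, by 0.41 ± 0.09 (adjusted p = 0.00165). Sco2, a copper chaperone for complex IV and a known p53 target, rose by 0.67 ± 0.13 (limma adjusted p = 0.00101). It ranged from 5.58 (median 6.66) to 7.33 untreated and from 6.67 (median 7.21) to 8.08 after ADR, was higher in all 14 lymphomas, and stood at 1.00 ± 0.21 at no fibroblast change (adjusted p = 0.00756).

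Several of the 47 genes have more than 1 probe set. Taken one by one, 56 of the 108 probe sets of the set were lower by limma and none was higher. The share over all single-gene probe sets was not counted. With 1 probe set per gene, 13.4% of all genes were lower and 15.3% higher. Of 19 genes that fell and have a second probe set, 13 had another one lower too. Of the genes that did not pass, Ogdh, Dlst, Sdha and Ndufs7 also had another probe set that was lower. Mdh1 had 3 more, from -0.25 to -0.50, and Ndufs8 had 4 more, from -0.37 to -0.40. Fh1 and Uqcrfs1 rest on 1 probe set each. For Ndufb8 the more variable probe set stood at 0.11 (limma adjusted p = 0.608), against -0.19 for the brightest. The probe sets used for Atp5c1, Cox5b, Idh1, Idh3b, Mdh1, Ndufv1, Suclg2 and Uqcrq are of a type that can share sequence with other transcripts, so these 8 values, 5 of them falls, may include signal from near copies.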

How the data were processed

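Affymetrix arrays of 28 cultures were used. Each file column holds deposited log2 values of 45101 probe sets, which the authors made with RMA and Partek 6.5, per the submitters' processing notes. No genome build is given in these sources. RMA removes background, normalizes between arrays and summarises probes. Of the probe sets, 34945 named 1 gene in the array annotation dated 2016, 932 several and 9160 none, and 64 were controls. The brightest single-gene probe set was kept for each of 18193 genes.

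Changes were fitted with limma 3.58.1 (R 4.3.3) with lymphoma as a block and adjusted by Benjamini-Hochberg over all genes. The labels give the lymphoma of each array, and same-lymphoma arrays correlated at r from 0.27 to 0.62 (median 0.48) in their deviations from the group means, against -0.08 for others. Each lymphoma is 1 tumour with 1 array per treatment. On simulated data of 18193 genes the paired fit recovered 24.6%, 76.5% and 92.5% of changes of 0.3, 0.5 and 1, with 6 false among 136 calls. In the data, 2435 genes were called lower and 2790 higher. The adjusted threshold was thus less strict on p than in the simulation, and these shares do not carry over. Regressing a gene's 14 changes on the fibroblast list change gave an intercept, its value at no fibroblast change.

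The genes, lists and alternatives were chosen with earlier results of these data known. Values are given for up to 4 genes per group with the smallest p, for Cs, Cycs, the paired enzymes and complex II, and for up to 4 per other list; some others are named by change only, after their values were seen. Alternatives were the block, the probe set, a filter on dim genes, centring, and lymphomas left out. Promoter windows came from RefSeq (GRCm38.p6). Python 3.11.15, scipy 1.17.1 and matplotlib 3.10.9 were used.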

Additional observations from a re-analysis of the deposited data

How the results depend on the processing

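The count of 29 lower genes stayed between 20 and 35 under most alternatives. It was 20 with no replicate block, that is without the paired fit (9.47% of all genes lower). The most variable probe set gave 27 (13.9%) and the mean of all probe sets 29 (14.2%). A filter on dim genes gave 30 (24.6%) and arrays centred on their medians 35 (23.1%). The count was 27 without lymphomas 403 and 5560 (11.2%) or in the 11 lymphomas of the earlier series (12.4%). Leaving out 1 lymphoma at a time gave 27 to 32 lower and 0 to 1 higher, the 1 being Idh1 without lymphoma 1570; 27 of the 29 genes were lower each time, with Cs and Ndufs1 the exceptions. The count was 5 at no fibroblast change and 0 in the 3 other lymphomas, where 5 genes passed at an unadjusted p under 0.05. Fewer samples were fitted in the latter. Idh2, Fh1, Ndufv2 and Uqcrfs1 were lower under every alternative but the 3 lymphomas. The sign turned for Ndufb8 with the most variable probe set (0.11) and for Ndufs1 at no fibroblast change (0.042), and the cause was not tested. Changes near 0.3 were recovered in 24.6% of simulated cases, but far fewer genes changed there than in these data. The simulation's cut on the unadjusted p was therefore stricter, and 24.6% is not the power of the test here. A gene that did not pass may still have changed by about that much. How often such changes were missed was not tested.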
